A study of Mus musculus with 12 samples.

Results

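The 43 genes described here are skeletal muscle genes: transcription factors of muscle formation, proteins of the contractile apparatus, the channels and receptors that couple nerve to contraction, and proteins that assemble, fuel and anchor the muscle fibre. They were chosen by name, as rows of the deposited expression tables, and all 43 were found among the 24279 genes of the tables. By role, 6 are regulators, 21 contractile and sarcomere proteins, 7 proteins of excitation and the nerve-muscle synapse, and 9 proteins of assembly, metabolism, membrane and turnover. The cells were primary mouse embryonic fibroblasts, that is, adherent cells grown out of embryos, here of embryonic day 12.5, and polyadenylated RNA was sequenced from 12 libraries.

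Fortified mutant cells carried the Rsg1L3P/L3P genotype, came from F3 mice kept on 10 ppm folic acid and were grown with 3600 ng/mL folic acid. Fortified wild type cells had the same diet and medium with the wt genotype. Moderate mutant cells (Rsg1L3P/L3P) and moderate wild type cells (wt) came from F3 mice kept on 2 ppm folic acid and were grown with 225 ng/mL. Each group had 3 libraries, which bear the replicate numbers of the labels. Diet and medium changed together and cannot be told apart, so folic acid level means both here. The Rsg1 protein, a GTPase relative, belongs to the CPLANE complex that cells use when they form primary cilia. Rsg1 RNA, in TPM (a read share corrected for transcript length), was 1.43 to 2.04 in fortified mutant and 1.56 to 2.59 in fortified wild type cells, and 2.15 to 3.29 in moderate mutant and 1.29 to 2.11 in moderate wild type cells. The labels do not say that the mutation removes the transcript, so this level does not check the genotypes. The labels give neither the parts of the embryo that were taken nor whether replicate libraries stem from different embryos, so p values measure the spread between libraries only.

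Skeletal muscle forms from progenitors that express Pax3, Pax7 or both and then commit through the basic helix-loop-helix factors Myf5 and Myod1. Committed myoblasts divide, leave the cell cycle as Myog rises, fuse into multinucleated myotubes and switch on the sarcomere genes, which Myog, Myod1 and the MEF2 proteins activate together. Embryonic muscle first uses embryonic, cardiac and slow isoforms of the contractile proteins, several of which adult muscle replaces with fast ones. Connective tissue fibroblasts do not normally follow this programme, although forced expression of Myod1 can start it in them.

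The myogenic factors bind DNA at E-boxes (CANNTG) and the MEF2 proteins at an A/T-rich site, while serum response factor binds CArG boxes in actin genes. The sequences of 4 members are shown because they are, in turn, the regulator with the highest level, a synapse gene that followed the set closely, and the 2 striated muscle actins, which did not keep pace with each other. Each is the 250 bases before the gene's start, read on the gene's own strand, from RefSeq (GRCm38.p6, the assembly also called mm10). Capitals mark E-boxes and CArG boxes. The windows are chr1:134289754-134290003 (plus strand) for Myog, chr2:73580339-73580588 (minus strand) for Chrna1, chr8:123894776-123895025 (minus strand) for Acta1 and chr2:114052876-114053125 (minus strand) for Actc1.
Myog: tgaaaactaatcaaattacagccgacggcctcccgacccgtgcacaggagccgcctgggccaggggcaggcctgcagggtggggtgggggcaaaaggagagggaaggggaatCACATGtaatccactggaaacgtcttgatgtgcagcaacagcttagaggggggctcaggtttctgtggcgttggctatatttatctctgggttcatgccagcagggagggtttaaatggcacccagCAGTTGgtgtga
Chrna1: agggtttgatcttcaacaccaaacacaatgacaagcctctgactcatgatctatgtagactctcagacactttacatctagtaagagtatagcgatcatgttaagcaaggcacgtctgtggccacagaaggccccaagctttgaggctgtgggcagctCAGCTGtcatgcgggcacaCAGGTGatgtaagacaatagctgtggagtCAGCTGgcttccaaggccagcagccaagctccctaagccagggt
Acta1: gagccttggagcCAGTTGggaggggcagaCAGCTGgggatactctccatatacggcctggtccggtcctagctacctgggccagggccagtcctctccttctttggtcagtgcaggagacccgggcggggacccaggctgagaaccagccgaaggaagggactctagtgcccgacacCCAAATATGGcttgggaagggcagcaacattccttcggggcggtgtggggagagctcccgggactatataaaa
Actc1: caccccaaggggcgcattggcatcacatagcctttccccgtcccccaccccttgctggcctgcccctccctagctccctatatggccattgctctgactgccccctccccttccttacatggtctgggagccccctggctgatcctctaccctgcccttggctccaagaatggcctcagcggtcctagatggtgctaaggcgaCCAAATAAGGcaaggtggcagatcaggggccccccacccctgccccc
The Myog window held 2 E-boxes and the Chrna1 window 3, 2 of them with the letters CAGCTG. In the actin windows there was 1 CArG box each, with 2 further E-boxes for Acta1. RefSeq gave such windows for 36 of the 43 genes. An E-box lay in 30 of the 36 (83.3%), against 69.3% of 27025 mouse genes, searched in the same way on both strands. The form CAGCTG, which is contained in CANNTG, lay in 15 of 36 (41.7%), against 14.7% of all genes. CACCTG, also contained in CANNTG, lay in 9 of 36 (25%), against 19.4%. A MEF2 site lay in 4 of 36 (11.1%), against 3.42%, and a CArG box in 3 of 36 (8.33%), against 1.62%. The forms searched were YTAWWWWTAR for MEF2 and CCWWWWWWGG for CArG, where Y is C or T, W is A or T and R is A or G. Near matches were not counted, among them a stretch of the Myog window that departs from the MEF2 form in its last letter. TATAAA lay in 4 of 36 (11.1%), against 8.94%. These are matches of letters, not measured binding.

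The 12 libraries held 39339131 to 48475920 counts each. Of the 24279 genes, 15186 passed the low-count filter, and so did 42 of the 43 muscle genes, all except Myf6. Markers of fibroblasts (10 genes, Col1a1 and Col1a2 highest) were all at 1 TPM or more in every library. TPM is a share of all transcripts, corrected for transcript length. Fortified mutant 2, fortified mutant 3 and moderate wild type 1 lay at the positive end of the leading principal component (30.2% of the variance), at scores of 48.1, 57.5 and 68. Moderate wild type 2 and 3 lay at its negative end, at -68.6 and -53.7. The 3 libraries at the positive end are called those that stood apart below, though moderate wild type 2 and 3 lay about as far out. Xist reached 1000 counts in all 6 mutant and in 2 of 6 wild type libraries, and Y-linked transcripts reached 10 counts in 0 mutant and 3 wild type libraries. Sex was thus partly confounded with genotype. Its part in the comparisons of genotype was not tested and cannot be fully told apart from that of genotype. In these bulk RNA data, fewer muscle cells and less muscle RNA per cell cannot be told apart.

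The muscle genes were expressed in every library, but in 3 of the 4 groups at levels that differed severalfold between libraries. Summed over the 43 genes, the level was 2620.3, 10655 and 7326 TPM in fortified mutant, 2867, 1327 and 5496 TPM in fortified wild type, 7336, 6744 and 5673 TPM in moderate mutant and 9018, 3171 and 3614 TPM in moderate wild type libraries 1, 2 and 3. The highest sum was 8.03 times the lowest. As a share of all transcripts this was 1.07% in fortified mutant 2, the highest, and 0.133% in fortified wild type 2, the lowest. Group means were 6867 ± 4037 TPM in fortified mutant, 3230.1 ± 2108 TPM in fortified wild type, 6584 ± 843 TPM in moderate mutant and 5268 ± 3255 TPM in moderate wild type cells (SD, n = 3 each). Moderate mutant libraries lay close together, and each of them exceeded every fortified wild type library. Fortified mutant and moderate wild type cells held libraries both above and below all of the moderate mutant ones, and the sums of fortified mutant and fortified wild type libraries overlapped, as did those of moderate mutant and moderate wild type libraries.

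The regulators summed to 122, 453 and 459 TPM in fortified mutant, 116, 46.3 and 245 TPM in fortified wild type, 358, 341 and 369 TPM in moderate mutant and 665, 141 and 169.8 TPM in moderate wild type libraries 1, 2 and 3. Their range was 14.3-fold, with moderate wild type 1 highest and fortified wild type 2 lowest. The 21 contractile genes summed to 2312, 9586 and 6396 TPM in fortified mutant, 2505, 1065 and 4897 TPM in fortified wild type, 6379, 5834 and 4898 TPM in moderate mutant and 7669, 2635 and 3240.0 TPM in moderate wild type libraries 1, 2 and 3. Their range was 9-fold, with fortified mutant 2 highest and the same library lowest. For the 7 genes of excitation and the synapse the sum was 35.6, 139 and 127 TPM in fortified mutant, 61.2, 18.2 and 81.7 TPM in fortified wild type, 175, 154 and 111 TPM in moderate mutant and 228, 73.9 and 57.1 TPM in moderate wild type libraries 1, 2 and 3, a 12.5-fold range. The 9 genes of assembly, metabolism, membrane and turnover had the narrowest range, 3.24-fold, with 152, 477 and 344 TPM in fortified mutant, 186, 198 and 272 TPM in fortified wild type, 423, 415 and 295 TPM in moderate mutant and 456, 321 and 148 TPM in moderate wild type libraries 1, 2 and 3. In this last class desmin (Des) was the most abundant gene, at a mean of 189.9 TPM, and it ranged 3.7-fold. The other genes of the class at 1 TPM or more in every library ranged more widely, from 5.35-fold (Cav3) to 19.9-fold (Cdh15). In 3 of the 4 classes fortified wild type 2 was the lowest library, and in the last it was moderate wild type 3.

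**Figure D1:**
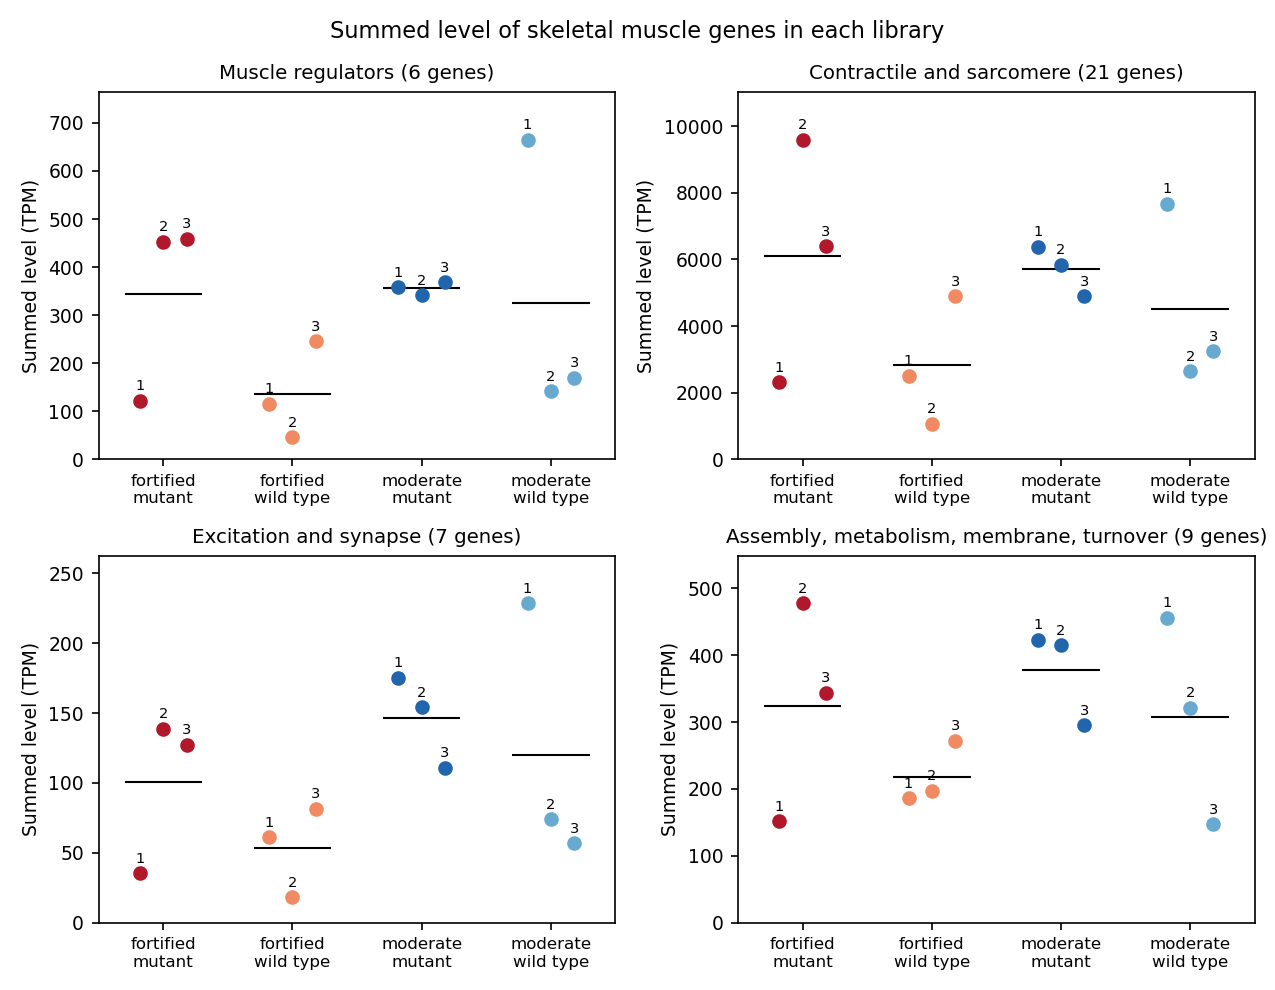
Summed level (TPM) of the 4 classes of skeletal muscle genes in each library. Points are libraries with their replicate numbers, lines are group means. Moderate wild type 1 has the highest regulator sum (665 TPM) and fortified mutant 2 the highest contractile sum (9586 TPM), while the 3 moderate mutant libraries lie close together for the regulators (341 to 369 TPM).

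Among the regulators, Myog had by far the highest level. Myogenin, encoded on chromosome 1 (134290004 to 134292548, GRCm38), drives the terminal differentiation of myoblasts. It was at 80.3, 332 and 345 TPM in fortified mutant, 73.4, 30.1 and 172 TPM in fortified wild type, 245, 222 and 267 TPM in moderate mutant and 506, 95.2 and 131 TPM in moderate wild type libraries 1, 2 and 3. The highest value, in moderate wild type 1, was 16.8 times the lowest, in fortified wild type 2. Fortified mutant 2 and 3 lay above all fortified wild type libraries, but fortified mutant 1 lay below fortified wild type 3. Group means were 252 ± 149 TPM in fortified mutant, 91.8 ± 72.7 TPM in fortified wild type, 245 ± 22.5 TPM in moderate mutant and 244 ± 227 TPM in moderate wild type cells (SD, n = 3 each).

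Myod1, the factor that commits cells to muscle (chromosome 7, 46376474 to 46379092), was lower and varied in parallel. Its level was 24.2, 73 and 73.2 TPM in fortified mutant, 21.6, 6.40 and 45 TPM in fortified wild type, 59.6, 70.7 and 66.7 TPM in moderate mutant and 97.1, 23.9 and 21.4 TPM in moderate wild type libraries 1, 2 and 3. The range was 15.2-fold, and the highest and the lowest library were those of Myog. Myod1 transcripts amounted to 16.4 to 31.9% of Myog transcripts, with a median of 24.7%. Mef2c, a MADS-box factor that acts with the myogenic factors and is also used in heart, vessels and neurons, was at 16.8, 47.5 and 39.3 TPM in fortified mutant, 20.3, 9.72 and 28 TPM in fortified wild type, 52.7, 48.2 and 33.7 TPM in moderate mutant and 58.8, 22.1 and 17.4 TPM in moderate wild type libraries 1, 2 and 3. It varied 6.04-fold, less than Myog and Myod1, with the same library highest and the same lowest.

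Myf5 and Pax7, members that act at earlier stages, were scarce. Pax3 is not among the members. Myf5, the first of the myogenic factors to appear in the embryo, had 11, 26 and 73 counts in fortified mutant, 13, 3 and 12 in fortified wild type, 24, 14 and 48 in moderate mutant and 91, 8 and 7 in moderate wild type libraries 1, 2 and 3. Pax7, the factor of muscle progenitors and satellite cells that is also used in neural crest and spinal cord, had 0, 14 and 39 counts in fortified mutant, 7, 2 and 4 in fortified wild type, 1, 3 and 20 in moderate mutant and 69, 3 and 0 in moderate wild type libraries. The highest counts of both fell in moderate wild type 1, followed by fortified mutant 3 and moderate mutant 3. Myf6, the factor linked to mature fibres, had 0 to 4 counts per library and was not tested. Myf6 and Pax7 were below 1 TPM in every library and were the only members with a count of 0 in any library.

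The most abundant muscle transcripts were contractile. Tnnc1, the calcium-binding troponin of slow and cardiac muscle (chromosome 14, 31208312 to 31211729), averaged 830.3 TPM over the 12 libraries. It was at 446, 1831 and 1261 TPM in fortified mutant, 366, 154 and 899 TPM in fortified wild type, 947, 866 and 840.3 TPM in moderate mutant and 1367, 328 and 658 TPM in moderate wild type libraries 1, 2 and 3. Actc1, the cardiac actin that embryonic skeletal muscle also uses (chromosome 2, 114047282 to 114052875), was at 243, 1296 and 1029.6 TPM in fortified mutant, 336, 111 and 549 TPM in fortified wild type, 1044, 858 and 748 TPM in moderate mutant and 1752, 322 and 379 TPM in moderate wild type libraries 1, 2 and 3. Fortified mutant 2 was highest for Tnnc1 and moderate wild type 1 for Actc1. Mylpf, the regulatory light chain of fast muscle myosin, was at 381, 1613 and 1055 TPM in fortified mutant, 399, 178 and 855 TPM in fortified wild type, 738, 686 and 718 TPM in moderate mutant and 826, 348 and 565 TPM in moderate wild type libraries 1, 2 and 3. For all 3 genes fortified wild type 2 was lowest, and the 3 moderate mutant libraries lay between the highest and the lowest moderate wild type library.

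Most contractile genes shared the lowest library but not the highest. Of the 21, fortified wild type 2 was lowest for 19. Moderate wild type 1 and fortified mutant 2 were highest for 9 each and moderate mutant 1 for 3. In other classes moderate wild type 1 led more often, for 5 of 6 regulators, 7 of 7 excitation and synapse genes and 5 of 9 assembly genes. Of all 43 members, moderate wild type 1 had the highest TPM for 26, fortified mutant 2 for 11, moderate mutant 1 for 4 and moderate mutant 2 for 2. Fortified wild type 2 was lowest for 37, the exceptions being Myf6, Pax7, Acta1, Myom1, Des and Ckm. Fortified mutant 2 and 3 both lay above fortified mutant 1 and all fortified wild type libraries for 36 members, while fortified mutant 1 lay below fortified wild type 3 for all 43. All moderate mutant libraries lay above moderate wild type 2 and 3 for 36 members, whereas moderate wild type 1 lay above all moderate mutant libraries for 31. Among the members the split therefore ran within groups as well as between them. The share of all genes that showed these orders was not counted. Over all tested genes, moderate wild type 1 and fortified mutant 2 and 3 also had the highest scores on the leading component. Moderate wild type 2 and 3 had the lowest, so these orders need not be particular to muscle genes. Of the 43 members, 34 were at 1 TPM or more in every library, and the ratio of their highest to their lowest library ran from 3.7 (Des) to 22.8 (Neb), with a median of 11.5.

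The spread between libraries of a group was wide for these genes. Over the 42 tested members, the median within-group SD of log2 CPM (log2 of the scaled count per library total) was 0.92, against 0.35 over all 15186 tested genes, and 24 of the 42 exceeded the 90th percentile of all tested genes (0.90). By group, the median SD of members was 1.01 in fortified mutant, 1.11 in fortified wild type, 0.24 in moderate mutant and 0.97 in moderate wild type cells. The same medians over all tested genes were 0.30 in fortified mutant, 0.24 in fortified wild type, 0.19 in moderate mutant and 0.42 in moderate wild type cells. Moderate mutant was the group in which the muscle genes came closest to the spread of other genes.

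**Figure D2:**
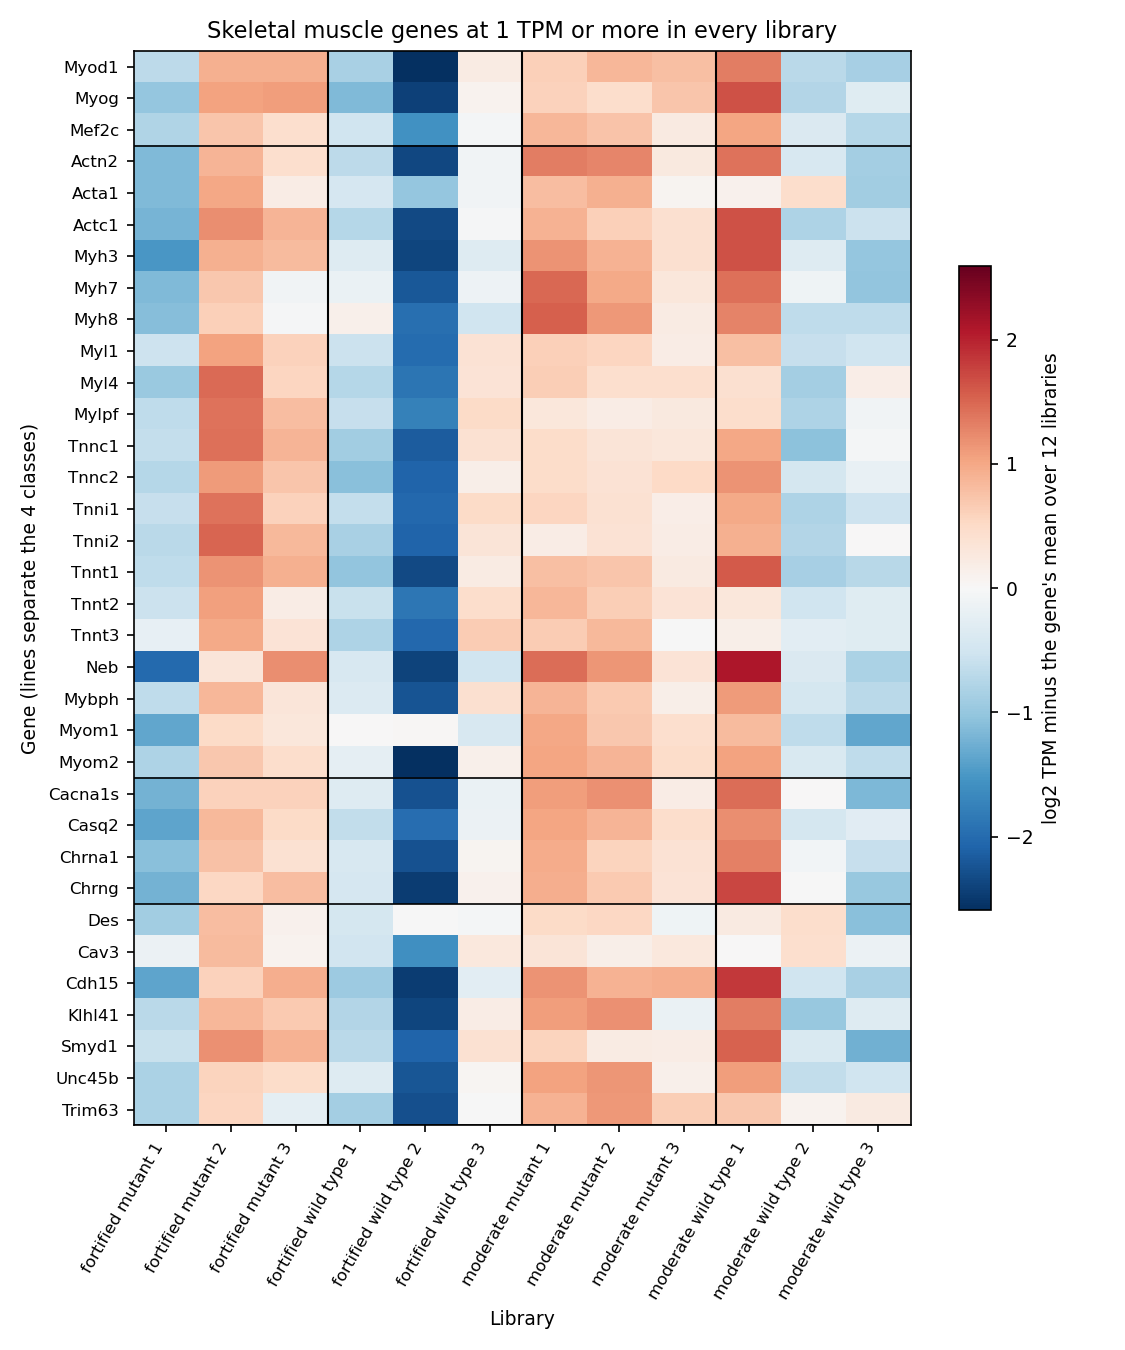
Level of the 34 skeletal muscle genes at 1 TPM or more in every library, as log2 TPM minus the gene's mean over the 12 libraries (colour scale, red above and blue below the mean), with genes in rows by class and libraries in columns by group. The median over the 34 genes is highest in moderate wild type 1 (1.14), followed by moderate mutant 1 (0.88), fortified mutant 2 (0.87), moderate mutant 2 (0.71) and fortified mutant 3 (0.57), and lowest in fortified wild type 2 (-2.18).

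A few members departed from the common order. The measure was each gene's log2 TPM minus the median of the other members at 1 TPM or more everywhere, centred over the libraries; its SD was smallest for Mybph, Chrna1 and Myom2 (0.17, 0.19 and 0.21) and largest for Des, Myom1 and Neb (0.82, 0.79 and 0.62). Des encodes desmin, the intermediate filament of all muscle types, smooth muscle included. It was at 95.3, 309.5 and 192 TPM in fortified mutant, 129, 177 and 170.2 TPM in fortified wild type, 250.4, 256 and 164 TPM in moderate mutant and 209, 243 and 83.5 TPM in moderate wild type libraries 1, 2 and 3. In fortified wild type 2, where most muscle genes were lowest, Des lay 2.19 and Myom1, an M-band protein, 2.22 log2 units above the other members. Acta1, the skeletal muscle actin, lay 1.19 above them there. Acta1 was at 149, 664 and 376 TPM in fortified mutant, 245, 164 and 312 TPM in fortified wild type, 575, 631 and 349 TPM in moderate mutant and 359, 457 and 178 TPM in moderate wild type libraries 1, 2 and 3, a 4.44-fold range against 15.8-fold for Actc1.

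Embryonic, slow and fetal isoforms held most of the transcripts in the myosin heavy chain, troponin I, troponin C and acetylcholine receptor families. Of the TPM of 6 myosin heavy chains, the embryonic chain Myh3 made up 73.7 to 86% in each library, the perinatal chain Myh8 4.81 to 10.6% and the slow and cardiac chain Myh7 6.69 to 14.1%. The adult fast chains were minor: Myh1 made up 0.33 to 2.03%, Myh2 0.13 to 2.52% and Myh4 0.045 to 0.27%. Among inhibitory troponins, the slow form Tnni1 held 84.8 to 91%, the fast form Tnni2 8.58 to 15% and the cardiac form Tnni3 0.096 to 1.48%. Among calcium-binding troponins, Tnnc1 held 81.1 to 89% against the fast form Tnnc2. Of the fetal and adult subunits of the acetylcholine receptor the fetal one was the higher: Chrng made up 98.3 to 100% of Chrng and its adult counterpart Chrne, which had 0 counts in 7 libraries. Salmon divides reads that fit several similar transcripts, so shares within the myosin, actin and troponin families carry an uncertainty that was not measured.

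Other isoform shares differed between libraries. Tnnt1, the slow troponin T, as a share of Tnnt1, Tnnt2 and Tnnt3, was 25.1, 29.7 and 38.4% in fortified mutant, 23.2, 22.6 and 24% in fortified wild type, 27.8, 28.3 and 27.8% in moderate mutant and 49.6, 22.5 and 22.7% in moderate wild type libraries 1, 2 and 3. Fortified mutant 3 and moderate wild type 1 were highest and the other 10 libraries lay between 22.5 and 29.7%. The share of Acta1 in the sum of Acta1 and Actc1 was 38.1, 33.9 and 26.7% in fortified mutant, 42.2, 59.7 and 36.3% in fortified wild type, 35.5, 42.4 and 31.8% in moderate mutant and 17, 58.6 and 31.9% in moderate wild type libraries 1, 2 and 3. It was lowest in moderate wild type 1 and highest in fortified wild type 2, with moderate wild type 2 next. The regulators, as a percentage of contractile TPM, were 5.26, 4.72 and 7.18% in fortified mutant, 4.62, 4.35 and 5.01% in fortified wild type, 5.61, 5.85 and 7.53% in moderate mutant and 8.67, 5.37 and 5.24% in moderate wild type libraries 1, 2 and 3. Here moderate wild type 1, moderate mutant 3 and fortified mutant 3 were highest, the same libraries that held the most Myf5 and Pax7 counts. Whereas the levels ranged 14.3-fold and 9-fold, this ratio ranged 1.99-fold.

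**Figure D3:**
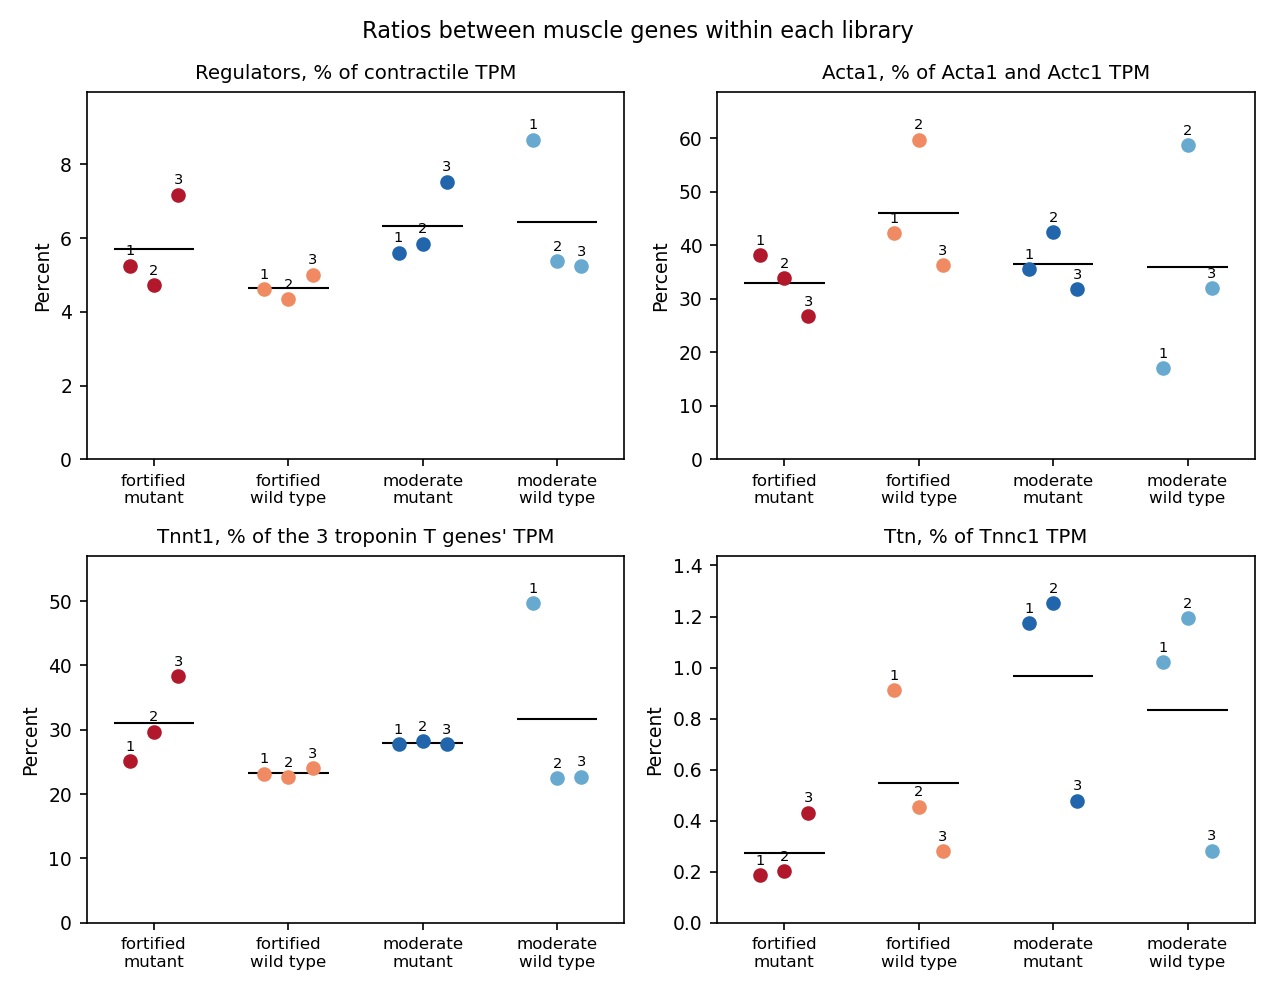
Ratios between skeletal muscle transcripts in each library, in percent. Points are libraries with their replicate numbers, lines are group means. Moderate wild type 1 has the highest share of regulators (8.67% of contractile TPM), the highest share of Tnnt1 (49.6%) and the lowest share of Acta1 (17%).

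The genes of excitation and the nerve-muscle synapse had the same highest and lowest library by sum as the regulators, but not the same order between. Next highest were moderate mutant 1 and 2 (175 and 154 TPM), where for the regulators fortified mutant 3 and 2 came next (459 and 453 TPM). Casq2, a calcium-storing protein of the sarcoplasmic reticulum, was at 12.5, 58.2 and 45.4 TPM in fortified mutant, 20.9, 8.18 and 29 TPM in fortified wild type, 65.7, 59.4 and 44.7 TPM in moderate mutant and 75, 23.5 and 26.4 TPM in moderate wild type libraries 1, 2 and 3. Chrng, the fetal gamma subunit of the acetylcholine receptor, was at 8.18, 28 and 33.3 TPM in fortified mutant, 14.2, 3.47 and 20.7 TPM in fortified wild type, 37.1, 30.8 and 24.6 TPM in moderate mutant and 63.5, 19 and 9.69 TPM in moderate wild type libraries 1, 2 and 3. Chrna1, the subunit that binds acetylcholine, was at 8.02, 28.6 and 22.3 TPM in fortified mutant, 12.7, 3.54 and 17.7 TPM in fortified wild type, 33.2, 25.4 and 21.9 TPM in moderate mutant and 41.9, 16.2 and 11.2 TPM in moderate wild type libraries 1, 2 and 3. In all 3, moderate wild type 1 was highest and fortified wild type 2 lowest, as for all 7 genes of this class. Ryr1, the calcium release channel, ranged 21.1-fold and Cacna1s, the voltage sensor that opens it, 13.1-fold. Chrnd, another receptor subunit, ranged 12.5-fold, and Musk, the kinase that clusters the receptor, ranged 31-fold at a mean of 1.93 TPM.

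Among the proteins of assembly, metabolism, membrane and turnover, Des was described above. Cdh15, M-cadherin of myoblasts and satellite cells, was at 10.4, 40.6 and 51.3 TPM in fortified mutant, 13.9, 4.82 and 22.2 TPM in fortified wild type, 59.5, 49.8 and 51.7 TPM in moderate mutant and 95.7, 18.8 and 14.9 TPM in moderate wild type libraries 1, 2 and 3, a 19.9-fold range. Smyd1, a methyltransferase needed for sarcomere assembly, was at 15.9, 53.7 and 44.5 TPM in fortified mutant, 14.5, 5.59 and 31.2 TPM in fortified wild type, 35.4, 27.6 and 26.9 TPM in moderate mutant and 68.7, 18 and 9.95 TPM in moderate wild type libraries 1, 2 and 3. Both were highest in moderate wild type 1 and lowest in fortified wild type 2. Ckm, the muscle creatine kinase that is abundant in mature fibres, was at 0.354, 0.726 and 1.01 TPM in fortified mutant, 0.622, 0.275 and 0.437 TPM in fortified wild type, 0.268, 0.526 and 0.507 TPM in moderate mutant and 1.05, 0.127 and 0.566 TPM in moderate wild type libraries 1, 2 and 3, the third lowest mean of the 43 members. The other genes of the class were Klhl41 and Unc45b, which act in sarcomere assembly, Cav3 and Sgca of the muscle membrane, and Trim63, a ubiquitin ligase. Their ranges were 13.2-fold for Klhl41, 10.3-fold for Unc45b, 5.35-fold for Cav3, 22.6-fold for Sgca and 10.5-fold for Trim63.

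Transcript length moved with some of these differences. Ttn, the giant spring of the sarcomere, has a transcript of up to 106824 bases, against 721 for Tnnc1 (GENCODE vM21). Ttn was at 0.836, 3.72 and 5.43 TPM in fortified mutant, 3.33, 0.699 and 2.52 TPM in fortified wild type, 11.1, 10.8 and 4.02 TPM in moderate mutant and 13.9, 3.92 and 1.86 TPM in moderate wild type libraries 1, 2 and 3. As a percentage of Tnnc1 it was 0.187, 0.203 and 0.431% in fortified mutant, 0.911, 0.455 and 0.280% in fortified wild type, 1.17, 1.25 and 0.478% in moderate mutant and 1.02, 1.19 and 0.282% in moderate wild type libraries 1, 2 and 3. The library's deviation of log2 CPM over the 14616 tested genes with a length had a slope per log2 of length of -0.16, -0.091 and 0.012 in fortified mutant, 0.035, -0.090 and -0.11 in fortified wild type, 0.14, 0.12 and 0.13 in moderate mutant and 0.096, -0.0036 and -0.074 in moderate wild type libraries 1, 2 and 3. The slope was positive in all moderate mutant libraries, and the ratio of Ttn to Tnnc1 was highest in moderate mutant 2. The ratio was lowest in fortified mutant 1, which had the lowest slope. Slope and ratio parted elsewhere. Moderate mutant 3 had a slope of 0.13 with a ratio of 0.478%, and moderate wild type 2 a slope of -0.0036 with a ratio of 1.19%. What the length trend did to single genes is given with the folic acid comparison in mutant cells.

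Further skeletal muscle genes were examined as a separate list of 52. Of these, 28 were at 1 TPM or more in every library, and their sum was 489, 1041 and 826 TPM in fortified mutant, 582, 478 and 758 TPM in fortified wild type, 1103, 1047 and 791 TPM in moderate mutant and 1022, 625 and 487 TPM in moderate wild type libraries 1, 2 and 3. Moderate mutant 1 was highest and fortified wild type 2 lowest, with a 2.3-fold range. The 4 with the highest mean were the muscle enolase Eno3, the myosin light chain Myl6b, the transcription factor Mef2a and Tmem8c (myomaker), which fuses myoblasts. Tmem8c was at 23.1, 80.8 and 77.8 TPM in fortified mutant, 27.7, 7.93 and 54.6 TPM in fortified wild type, 90.5, 80.5 and 66.7 TPM in moderate mutant and 95.3, 32 and 33.6 TPM in moderate wild type libraries 1, 2 and 3. Eno3 and Mef2a are also expressed outside skeletal muscle, and Mef2a was lowest in fortified mutant 1 (34.8 TPM) and highest in moderate mutant 3 (88.6 TPM). Of the 48 tested genes of this list, 0 passed edgeR's test in any comparison, where at most 6.93% of all tested genes did. For mutant against wild type, the log2 fold change was positive for 41 of 48 at fortified folic acid (median 0.65), where 51% of all tested genes were. At moderate folic acid it was positive for 37 (median 0.38), where 43.6% of all tested genes were. For fortified against moderate folic acid, 17 were positive in wild type cells (median -0.38), where 46.8% of all tested genes were. In mutant cells 18 were positive (median -0.073), where 53% of all tested genes were. DESeq2 called 1, Mef2a, in the last of these comparisons, where it called 18% of all genes. Mef2a had a log2 fold change of -0.53 (SE 0.19, DESeq2 adjusted p = 0.0284), and its edgeR adjusted p was 0.0702.

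Markers of other cell types bear on what these cultures held. Genes listed as heart markers, which need not be exclusive to the heart, were low. Their sum was 3.79 to 19.3 TPM for 10 genes, led by Myh6 and Nppb. None of them was at 1 TPM in every library, and Myl2, Myl7, Mybpc3 and Nppa were at 0 counts in at least 1 library. Of the members, Actc1, Tnnc1, Tnnt2, Myh7 and Casq2 are also used by the heart, and the part of heart cells in their levels was not tested. Myh6, a gene closely similar to Myh7, was lowest in fortified wild type 2 (0.755 TPM) and highest in moderate mutant 1 (7.08 TPM), as Myh7 was. Neuron markers (20 genes, Gap43 and Tubb3 highest, 14 at 1 TPM or more in every library, none at 0) summed to 141, 456 and 349 TPM in fortified mutant, 230.3, 180.3 and 178 TPM in fortified wild type, 241, 243 and 220.2 TPM in moderate mutant and 639.7, 178 and 153 TPM in moderate wild type libraries 1, 2 and 3. The highest sums of neuron markers were those of the 3 libraries at the positive end of the leading component. Smooth muscle markers (10 genes, led by Acta2 and Tagln, none at 0) summed to 4750.5, 12422 and 10382 TPM in fortified mutant, 9152, 11976 and 6694 TPM in fortified wild type, 11072, 11382 and 8263 TPM in moderate mutant and 10415, 9085 and 6495 TPM in moderate wild type libraries 1, 2 and 3.

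Fibroblast markers summed to 7142, 3944 and 4283 TPM in fortified mutant, 12904, 7408 and 9087 TPM in fortified wild type, 5603, 4934 and 4827 TPM in moderate mutant and 2815, 4926 and 2137 TPM in moderate wild type libraries 1, 2 and 3. The 3 fortified wild type libraries were the highest, and fortified mutant 1 came next after fortified wild type 2. The sum of the muscle genes amounted to 17.9% of that of the fibroblast markers in fortified wild type 2, the lowest, and to 320.4% in moderate wild type 1, the highest. Cell division genes (10 genes, led by Top2a and Birc5, none at 0) summed to 524, 508 and 923 TPM in fortified mutant, 673, 621 and 518 TPM in fortified wild type, 333, 309 and 359 TPM in moderate mutant and 896, 489 and 217 TPM in moderate wild type libraries 1, 2 and 3, with fortified mutant 3 and moderate wild type 1 highest. The sums of the remaining lists were 28 to 146 TPM for Schwann cell and neural crest, 7.16 to 39.9 TPM for endothelial, 10.4 to 62.8 TPM for blood and macrophage, 46 to 449.7 TPM for cartilage and 8.64 to 50.6 TPM for epithelial markers. At 0 counts in at least 1 library were Tie1 and Cldn5, Hba-a1 and Alas2, Matn1, and Krt5, Krt14 and Esrp1. The part of any of these cell types in the muscle gene differences was not tested.

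**Figure D4:**
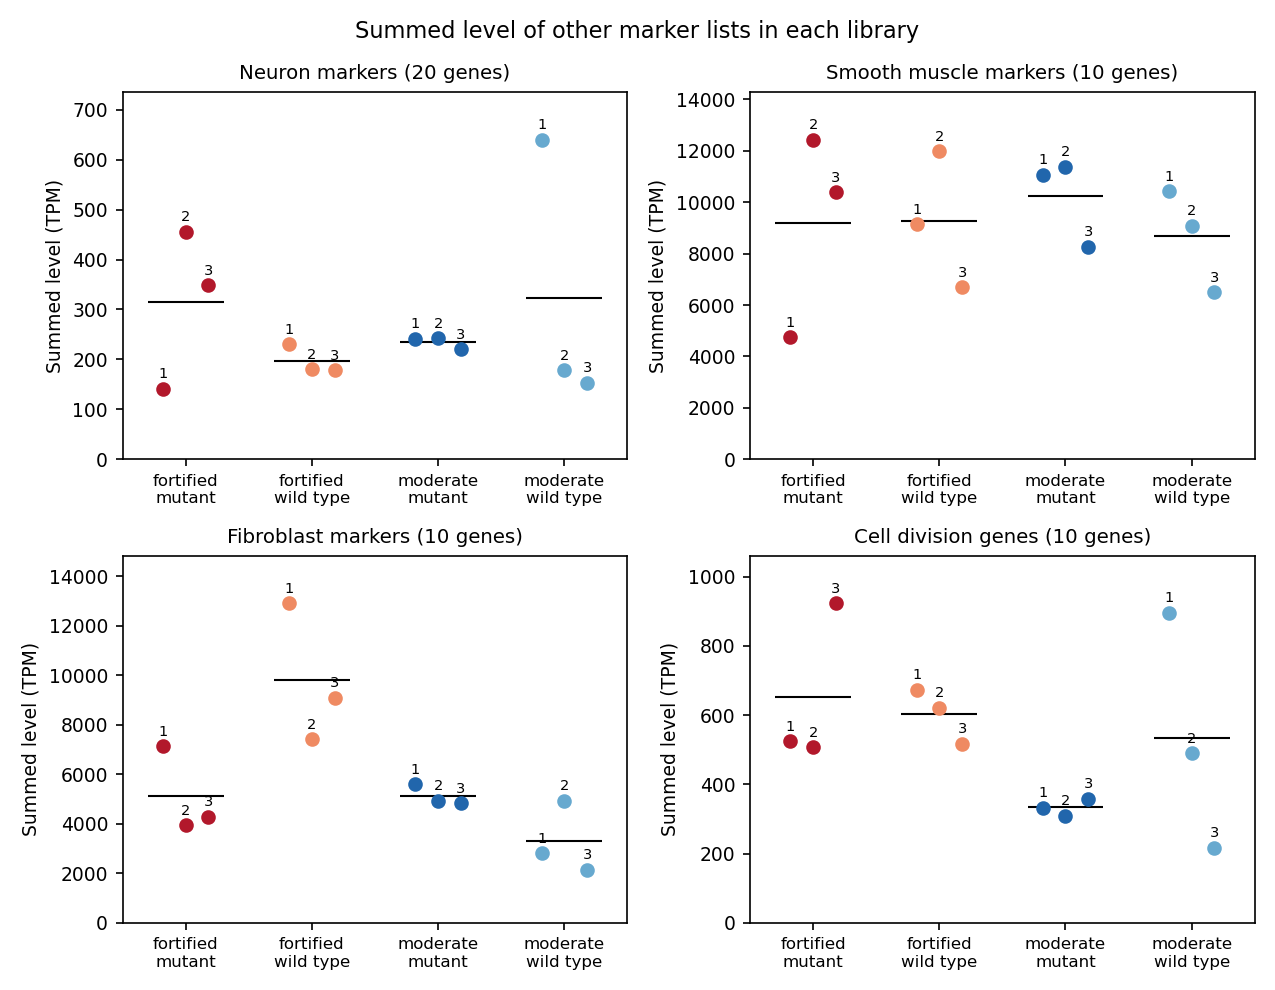
Summed level (TPM) of neuron, smooth muscle, fibroblast and cell division gene lists in each library. Points are libraries with their replicate numbers, lines are group means. Neuron sums are highest in fortified mutant 2 (456 TPM), fortified mutant 3 (349 TPM) and moderate wild type 1 (639.7 TPM), and fortified wild type libraries the highest fibroblast sums (7408 to 12904 TPM).

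In fortified mutant cells, compared with fortified wild type cells, all 42 tested muscle genes had a positive log2 fold change, where 51% of all tested genes did, and their median was 1.03, against 0.0069 over all genes. Of the 42, 22 exceeded 1, against a background of 4.54% of genes. By edgeR's quasi-likelihood test with Benjamini-Hochberg adjustment, 0 of 42 passed an adjusted p of 0.05, the background being 0% of 15186 genes, and DESeq2 called 0 as well (background 0.0396%). At an unadjusted p under 0.05 there were 2 members (background 3.29%), Tnnc2 with a log2 fold change of 1.33 (SE 0.58, unadjusted p = 0.0406) and Tnni2 with 1.42 (SE 0.63, unadjusted p = 0.045), both fast troponins. In both the edgeR adjusted p was 0.939. In the same comparison all 20 neuron markers were positive (median 1.18, 13 above 1) and 9 of 10 fibroblast markers were negative (median -0.56), with 0 of either list passing edgeR's test or DESeq2's and 1 neuron and 4 fibroblast markers at an unadjusted p under 0.05; their part in the muscle gene differences was not tested.

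Tnnc2 was at 62.2, 226 and 173 TPM in fortified mutant libraries 1, 2 and 3, against 49.6, 24.9 and 116 TPM in fortified wild type libraries. Tnni2 was at 17.7, 81.1 and 51.1 TPM in fortified mutant, against 15.8, 6.73 and 36.1 TPM in fortified wild type libraries. In both genes fortified mutant 2 and 3 exceeded every wild type library and fortified mutant 1 did not. Myog had a log2 fold change of 1.51 (SE 0.71, edgeR adjusted p = 0.939) and Myod1 one of 1.28 (SE 0.67). In log2 CPM the groups did not overlap for 0 of 42 members, where they did not for 10.3% of all tested genes. Leaving out fortified mutant 2 gave the lowest median of any single omission, 0.60, and leaving out fortified wild type 3 the highest, 1.58. Class medians were 1.51 for regulators, 1.13 for contractile, 0.94 for excitation and synapse and 0.83 for assembly genes. With the 3 libraries that stood apart left out the median over the members turned to -0.26, with 8 of 42 positive (background 49.7%), in a setting added after the data were seen that leaves fortified mutant 1 alone in its group, where its spread is assumed to be that of the other groups.

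At moderate folic acid the differences between mutant and wild type cells were of either sign. Of the 42 members, 32 had a positive log2 fold change and 10 a negative one, where 43.6% of all tested genes were positive, and the median was 0.21, against -0.054 over all genes. By edgeR 0 passed (background 0%), by DESeq2 0 (background 0.365%), and at an unadjusted p under 0.05 there were 0 members (background 7.87%). The class medians were -0.10 for regulators, 0.29 for contractile, 0.19 for excitation and synapse and 0.18 for assembly genes. The smallest p belonged to Myom1, at 37.1, 29.9 and 24.9 TPM in moderate mutant, against 32.5, 11.7 and 7.28 TPM in moderate wild type libraries. Its log2 fold change was 0.73 (SE 0.48, edgeR adjusted p = 0.749). Acta1, at a log2 fold change of 0.50 (SE 0.46, edgeR adjusted p = 0.831), overlapped between the groups. Of the neuron markers 18 of 20 were negative (median -0.55) and of the fibroblast markers 8 of 10 positive (median 0.49), with 0 passing edgeR's test or DESeq2's and 1 neuron and 2 fibroblast markers at an unadjusted p under 0.05. Their part in the muscle gene differences was not tested.

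Only for Tnnt2, a troponin T of heart and embryonic skeletal muscle, did the groups not overlap in log2 CPM, with mutant libraries higher, where 6.34% of all tested genes showed this. It was at 457, 388 and 319 TPM in moderate mutant, against 308, 175 and 202 TPM in moderate wild type libraries, a log2 fold change of 0.60 (SE 0.51, edgeR adjusted p = 0.812). In TPM, Myl4 did not overlap either, so that 2 of 42 members were higher without overlap (background 12.8%). The size of this comparison rested on single libraries: the median over the members was 0.90, with 40 positive (background 47.1%), when moderate wild type 1 was left out and -0.036, with 20 positive (background 46.1%), when moderate wild type 3 was left out. For Myog the log2 fold change was -0.10 (SE 0.69), with moderate wild type 1 above and moderate wild type 2 and 3 below all mutant libraries.

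Fortified against moderate folic acid in wild type cells gave negative differences for most members. Of the 42 members, 40 had a negative log2 fold change and 2 a positive one, where 46.8% of all tested genes were positive, and the median was -0.84, against -0.037 over all genes. Below -1 were 13 members, against a background of 6.52%. By edgeR 0 passed (background 0.0263%), by DESeq2 0 (background 8.05%), at an unadjusted p under 0.05 there were 0 members (background 19.6%), and in log2 CPM the groups did not overlap for 0 (background 20.6%). In TPM they did not for 1, Trim63, which was lower (background 15.2%). The smallest p belonged to Trim63, Sgca and Cdh15. Trim63 was at 4.59, 1.75 and 8.41 TPM in fortified wild type, against 13.9, 9.09 and 9.98 TPM in moderate wild type libraries, a log2 fold change of -1.05 (SE 0.48, edgeR adjusted p = 0.257). Sgca, alpha-sarcoglycan of the muscle membrane, had -1.43 (SE 0.69, edgeR adjusted p = 0.276) and Cdh15 -1.48 (SE 0.71, edgeR adjusted p = 0.278). Class medians were -1.24 for regulators, -0.59 for contractile, -0.98 for excitation and synapse and -0.72 for assembly genes. In the same comparison all 10 fibroblast markers were positive (median 1.49), 7 of them called by DESeq2 and 0 by edgeR, and 19 of 20 neuron markers were negative (median -0.97), with 1 called by DESeq2 and 0 by edgeR. At an unadjusted p under 0.05 were 9 fibroblast and 2 neuron markers; their part in the muscle gene differences was not tested. Leaving out moderate wild type 1 brought the median over the members to -0.059, with 18 positive (background 50.9%), and leaving out fortified wild type 3 to -1.45.

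In mutant cells the direction of the same folic acid comparison turned on the unit and on single libraries. By edgeR 22 members were positive and 20 negative, where 53% of all tested genes were positive, and the median was 0.023, against 0.040 over all genes. By limma on log2(TPM + 1) 7 members were positive (background 29.4%) and the median was -0.39, against -0.23 over all genes. By edgeR 0 of 42 passed, against a background of 6.93% (1053 genes). DESeq2 called 0 (background 18%), at an unadjusted p under 0.05 there were 0 members (background 25.6%), and in log2 CPM the groups did not overlap for 0 (background 38.2%). In TPM they did not for 1, again Trim63, which was lower (background 35.9%). The smallest p belonged to Mylpf, at 381, 1613 and 1055 TPM in fortified mutant, against 738, 686 and 718 TPM in moderate mutant libraries, a log2 fold change of 0.86 (SE 0.56, edgeR adjusted p = 0.368). Next were Ckm with 1.00 (SE 0.67, edgeR adjusted p = 0.382) and Tnni2 with 0.90 (SE 0.63, edgeR adjusted p = 0.398). By limma-voom with quality weights these 3 passed, with log2 fold changes of 1.16, 1.35 and 1.19 for Mylpf, Ckm and Tnni2, where 34.7% of all tested genes passed. Of other lists, 19 of 20 neuron markers were positive (median 0.81), as were 9 of 10 fibroblast markers (median 0.49), with 0 passing edgeR's test or DESeq2's and 0 neuron and 2 fibroblast markers at an unadjusted p under 0.05. All 10 cell division genes were positive (median 1.27), 2 of them called by edgeR and 9 by DESeq2. The part of these lists in the muscle gene differences was not tested.

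Ttn had the lowest log2 fold change among the members, -1.04 (SE 0.76), and with each library's trend on transcript length removed, a setting added after the data were seen, it was -0.44. Mylpf, with a transcript of 766 bases, then had 0.35 and Tnni2 0.46. With fortified mutant 2 left out the median over the members was -0.36, with 8 positive (background 50.3%), and with fortified mutant 1 left out it was 0.37, with 37 positive (background 49.1%). With the 3 libraries that stood apart left out it was -1.32, with 1 positive (background 49.3%). In that setting 1 member, Myom1, passed edgeR's test, with a log2 fold change of -1.78 in mutant cells (edgeR adjusted p = 0.0252, background 7.08%) and of 0.93 in wild type cells (edgeR adjusted p = 0.0426, background 8.32%).

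The interaction asks whether the mutant difference at fortified folic acid exceeded that at moderate folic acid. It was positive for 41 of 42 members and negative for Myom1 (-0.57), where 53% of all tested genes were positive, and its median was 0.84, against 0.039 over all genes. Above 1 were 18 members, against a background of 7.76%. By edgeR 0 passed (background 0%), by DESeq2 0 (background 0.0528%), and at an unadjusted p under 0.05 there were 0 members (background 6.68%). Tnni2 had 1.53 (SE 0.88, edgeR adjusted p = 0.718), Tnnc2 1.36 (SE 0.81, edgeR adjusted p = 0.719) and Myog 1.61 (SE 0.98, edgeR adjusted p = 0.723). All 20 neuron markers were positive (median 1.67) and all 10 fibroblast markers negative (median -1.04), with 0 passing edgeR's test or DESeq2's and 5 neuron and 4 fibroblast markers at an unadjusted p under 0.05; their part was not tested. Leaving out moderate wild type 1 gave a median of 0.13 with 25 members positive (background 49.9%), leaving out fortified wild type 3 one of 1.42, and leaving out the 3 libraries that stood apart one of -1.19 with 1 member positive (background 47.7%). The interaction and the 4 comparisons share their libraries, so that they do not count as separate evidence, nor do the members, which varied together.

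**Figure D5:**
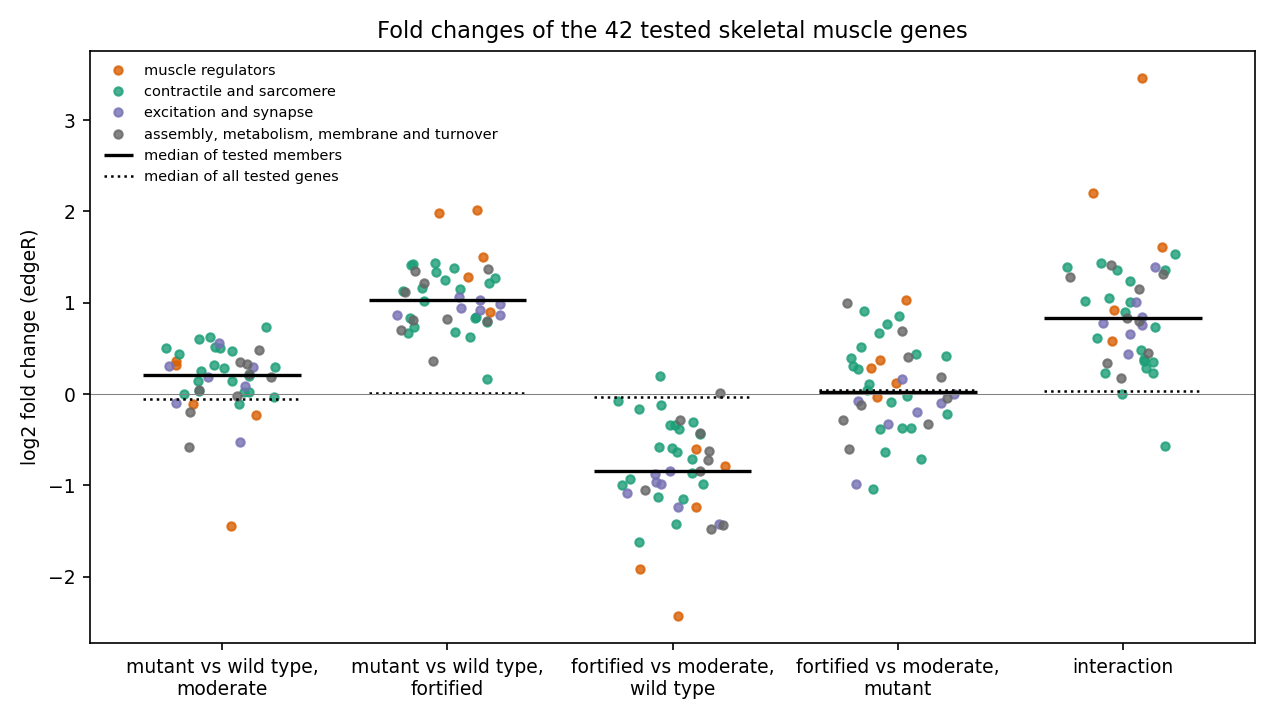
Log2 fold changes of the tested skeletal muscle genes in the 4 comparisons and the interaction, coloured by class (points are genes, solid lines the median of the members, dotted lines the median of all tested genes). The members lie above 0 for mutant against wild type at the fortified level (median 1.03), mostly below 0 for fortified against moderate folic acid in wild type cells (median -0.84), and on both sides of 0 in mutant cells, by edgeR on counts.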

How the data were processed

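Expected counts and TPM values, by gene symbol, were deposited by the authors as 2 tables whose names point to salmon. No version or annotation is given in the sources used here. The genome was mm10, per the submitters' processing notes. Libraries were made from trizol and chloroform extracts with a Tecan mRNA kit, per the labels' protocols. The column names' letters B and P are unexplained, and the link of columns to samples rests on the column numbers in the submitters' descriptions. There were 0 value columns of other samples.

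For tests, the deposited expected counts were rounded, filtered by filterByExpr (minimum count 10, minimum total 15), scaled by TMM and fitted in edgeR 4.0.16 (glmQLFit and glmQLFTest, R 4.3.3) with 1 mean per group over all 12 libraries. Benjamini-Hochberg adjustment ran over the 15186 tested genes, with a threshold of 0.05. Levels by library are the deposited TPM values. Log2 CPM used a prior count of 2. The common biological coefficient of variation was 0.332, so that for all but the scarcest members the spread between libraries exceeds counting error. The scripts were tested on simulated data.

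Members, lists and tests were chosen with earlier results of these data known. Hbb-bt and Cnmd of the marker lists had no row under these symbols in the deposited tables. This left 7 genes of the blood and macrophage list and 7 of the cartilage list. Genes were named by a rule on class, level, isoform set, 0 counts and smallest p; further members singled out for their range, order or departure were chosen after their values were seen. The results were recomputed with DESeq2 1.42.0, with limma-voom and quality weights, and with limma on log2(TPM + 1) and log2(TPM + 0.1) (limma 3.58.1), with median-of-ratios scaling, library totals, other filters, fits on only the groups compared, a replicate block, and each library left out in turn. Added after the data were seen were leaving out 3 libraries and removing each library's length trend.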

Additional observations from a re-analysis of the deposited data

How the results depend on the processing

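Under other tests, scalings, filters and units, the median log2 fold change of the members ran from 0.87 to 1.44 for mutant against wild type at fortified folic acid, from 0.19 to 0.71 at moderate folic acid, from -0.95 to -0.48 for fortified against moderate in wild type cells, from -0.45 to 0.14 in mutant cells and from 0.38 to 0.90 for the interaction. The number of members passing was 0 in these settings except by limma-voom with quality weights. There 3 passed (Mylpf, Ckm and Tnni2, fortified against moderate in mutant cells), where 34.7% of all tested genes did. The cause was not tested. Leaving out each library in turn gave 0 passing members throughout, with medians from 0.60 to 1.58 (fortified), -0.036 to 0.90 (moderate), -1.45 to -0.059 (folic acid, wild type), -0.36 to 0.37 (folic acid, mutant) and 0.13 to 1.42 (interaction). With the 3 libraries that stood apart left out, a setting added after the data were seen, the medians were -0.26 for mutant against wild type at fortified folic acid, -1.32 for fortified against moderate in mutant cells and -1.19 for the interaction, and 1 member passed for folic acid in wild type cells and 1 in mutant cells; that setting leaves fortified mutant 1 as the only library of its group. Whether the replicate numbers pair the libraries is not known. The correlations of same-numbered libraries' deviations ran from -0.20 to 0.24 (genotype, fortified), from -0.027 to 0.24 (genotype, moderate), from 0.093 to 0.21 (folic acid, wild type) and from -0.033 to 0.092 (folic acid, mutant). Differently numbered libraries gave, in turn, -0.27 to 0.31, -0.27 to 0.11, -0.22 to 0.099 and -0.083 to 0.094. A library's best match bore its own number in 5 cases for folic acid in wild type cells, against 2 or 3 in the other comparisons. With the replicate block the medians were 1.16 (fortified), 0.31 (moderate), -0.86 and 0.069 (folic acid, wild type and mutant) and 0.90 (interaction), and 0 members passed. Over all genes, 65 then passed for folic acid in wild type cells (4 without the block) and 559 in mutant cells (1053 without the block). With the length trend removed the medians of the members were 0.99, 0.23, -0.83, -0.038 and 0.84, with 0 passing. Depth limits the values of Pax7, Myf5, Myf6 and Ckm.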
